A study of Schizosaccharomyces pombe with 40 samples.

Results

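The comparison set snR107kloopmut cells against wt cells of the fission yeast Schizosaccharomyces pombe at 7 h of a synchronized meiosis. Its members are the 2 kloopmut and the 2 wt libraries of that hour in the deposited count table, 4 of 40 libraries in all. They were taken by strain and hour from the labels, and no measured value chose them. Both strains are haploid, of the h- mating type, leu1-32 and pat1-L95G::kanR, so all the libraries compared here carry the analog-sensitive Pat1 kinase. The kloopmut strain differs by a mutation of snR107, a small nucleolar RNA (snoRNA) made from the intron of the long non-coding RNA mamRNA. Cells were grown in EMM at 30 °C, kept 15 to 16 h without nitrogen, and then given 25 µM of the inhibitor 3-MB-PP1, which blocks Pat1 and starts meiosis, together with leucine (50 mg/L) and ammonium chloride (500 µg/mL). Poly(A)+ RNA was sequenced. A haploid cell driven into meiosis this way has no homologous chromosome to pair with, which limits it as a model of a diploid meiosis. The labels call the libraries of a group biological replicates, which by the study's methods are yeast cultures grown independently.

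In mitotic fission yeast, the YTH-family protein Mmi1 binds meiotic transcripts at copies of the motif UNAAAC and directs them to the nuclear exosome. Entry into meiosis depends on Mei2, an RNA-binding protein that Pat1 keeps inactive and that, with the non-coding RNA sme2, traps Mmi1 in a nuclear dot. The transcripts of meiosis then come in waves: genes of DNA replication, recombination and chromosome movement first, then genes of the meiotic divisions and of the forespore membrane, many of them under the forkhead factor Mei4, and last genes that build the spore wall. The study asked what the snoRNA made from the mamRNA locus does for the control of meiotic transcripts and the course of meiosis.

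The sequence of snR107 is shown because it carries the only labelled difference between the strains. The line below runs from its C box to its D box on the forward strand (II:1308239-1308341 of ASM294v3), with the C, D′, C′ and D boxes in capitals.
snR107: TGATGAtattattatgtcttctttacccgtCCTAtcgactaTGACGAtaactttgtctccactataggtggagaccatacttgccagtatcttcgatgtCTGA
The bases between the D′ and C′ boxes, tcgacta (II:1308273-1308279), hold the motif of 6 nucleotides in the kink-loop that the mutant carries as its reverse complement. The mutation removes no sequence and snR107 has no count of its own here, so no value checks the strain labels.

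Total counts were 28260986 and 24957965 in the kloopmut libraries, against 28201380 and 24409907 in the wt libraries. At these depths 3 counts in 1 library correspond to 0.152 to 0.239 CPM on the scaled library sizes, a floor that covers counting error only. Replicates correlated with r = 0.983 in kloopmut and r = 0.978 in wt across features, which are not independent replicates, and their counts differed by more than sampling noise (chi-square per feature 28.2 in kloopmut and 13.1 in wt). Protein-coding genes took 64.4% to 65.7% of all counts, and lncRNAs 34.1% to 35.5%. How featureCounts was set for strand is not given in the sources used here, and 1243 of 12684 features share no base with another. Over 2855 lncRNAs that lie inside a coding gene on the other strand, the lncRNA level followed that of its host (Pearson r = 0.920 across pairs, a median log2 ratio of 0.31), and so did the strain difference (r = 0.870). Reads of a gene and of its antisense partner therefore cannot be told apart, and the share of a named gene that overlaps another feature is given where it matters. Levels are in RPKM, the read count per kilobase of feature and per 1e6 reads of scaled library. Differences are log2 kloopmut minus wt with their standard error, from edgeR's quasi-likelihood test, and a feature is called where its Benjamini-Hochberg adjusted p is below 0.05.

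At 7 h, 7824 of 12019 features tested differed between the strains (65.1%), 4132 of them higher in kloopmut (34.4%) and 3692 lower (30.7%). Among protein-coding genes 2014 of 5075 were higher (39.7%) and 1846 lower (36.4%), which made 76.1% in all. The 768 coding genes with under 10% of their length on another feature gave a like split, with 289 higher (37.6%) and 291 lower (37.9%), or 75.5% called. A change of 2-fold or more was called for 2678 features that were higher (22.3%) and 2032 that were lower (16.9%). Scaling by total counts in place of TMM moved the median difference of all features from 0.05 to 0.48 and gave 5561 higher and 2269 lower, so that 71.0% of the calls were higher, against 52.8% with TMM. Differences below are relative to the TMM scale. In these bulk samples fewer cells with a transcript and less of it per cell cannot be told apart, and an effect on transcript levels at a given step of meiosis and a shift in the time at which that step is reached cannot be told apart from the 7 h libraries alone.

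Several of the largest falls were of genes that wt cells expressed at high levels. SPBP19A11.02c (II:2849544-2850843, no overlap) had 118 and 116 RPKM in the kloopmut libraries, against 3752 and 3627 RPKM in the wt libraries, a difference of -4.98 ± 0.14 (adjusted p = 1.87e-20) or 31.5-fold. Both kloopmut libraries thus lay below both wt libraries. The strains did not overlap for any of the 20 genes in the plot of the largest changes, since the rule that named them required it. The Knh proteins belong to a family that acts in cell wall glucan assembly in budding yeast, and both genes were among the 10 largest falls. The gene knh2 (III:1309609-1310947) had 254 and 295 RPKM in kloopmut, against 4816 and 4426 RPKM in wt, and knh1 had 29.2 and 35.6 RPKM in kloopmut, against 396 and 369 RPKM in wt. The plasma membrane proton pump gene pma2 (III:793179-796301) had 203 and 250 RPKM in kloopmut, against 3305 and 3236 RPKM in wt (-3.85 ± 0.17, adjusted p = 1.11e-16). The enolase gene eno102 had 1.83 and 1.97 RPKM in kloopmut, against 37.4 and 40.8 RPKM in wt. SPAC186.02c, SPCC594.04c, SPAC56F8.12, SPCC737.04 and tgp1, which encodes a transporter of glycerophosphodiesters, fell by 4.62, 4.07, 3.69, 3.69 and 3.54 on the log2 scale.

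The largest rises were of genes at low levels in wt cells at this hour, with 32.0 RPKM or less in each wt library. The gene ned8 encodes a ubiquitin-like modifier of cullins, and it had 35.5 and 25.7 RPKM in kloopmut, against 0.77 and 2.08 RPKM in wt (4.46 ± 0.56, adjusted p = 5.6e-08). The gene spo13 (III:604366-604955), which encodes a part of the meiotic spindle pole body from which the forespore membrane grows, was the highest of them, with 466 and 439 RPKM in kloopmut, against 32.0 and 31.3 RPKM in wt (3.84 ± 0.18, adjusted p = 2.46e-16). The prefoldin subunit gene pfd4 had 170 and 144 RPKM in kloopmut, against 8.65 and 11.1 RPKM in wt, but lies wholly on another feature. The gene tht2 overlaps no other feature and had 121 and 116 RPKM in kloopmut, against 9.80 and 10.9 RPKM in wt. The others were mug151 (4.07), SPAC8E11.06 (3.65), the mRNA decapping subunit gene dcp1 (3.62), the Sir2-family deacetylase gene hst2 (3.60), tma20 (3.57) and cmc4 (3.52). SPAC8E11.06, a short feature, had 14.1 and 10.01 RPKM in kloopmut and was at 0 in wt replicate 2. Its difference was 2.75 without wt replicate 2 and a fitted 9.12 without wt replicate 1, where the only wt library left is at 0, so its size depends on single libraries.

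**Figure D1:**
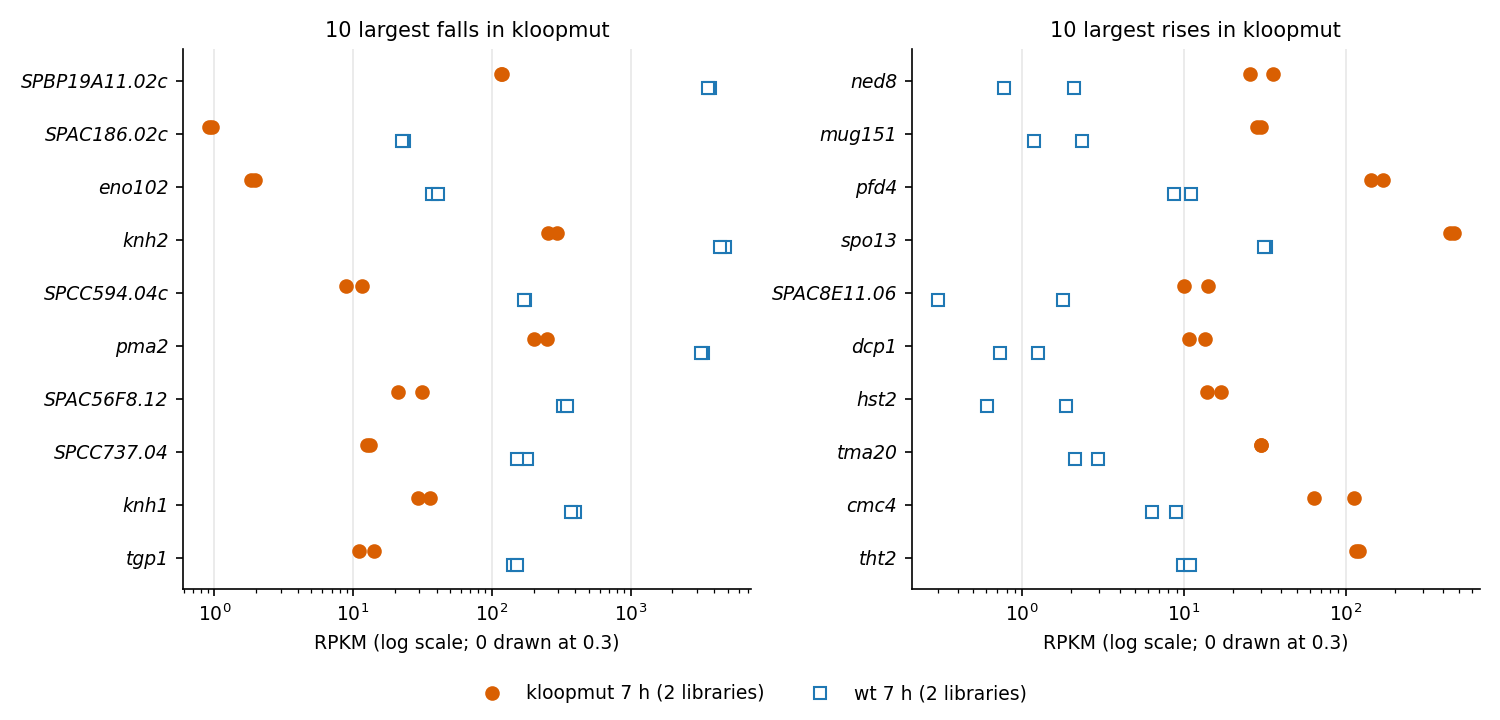
RPKM on a log axis of the 10 protein-coding genes with the largest falls (left) and the 10 with the largest rises (right) in kloopmut at 7 h, with 1 point per library (filled, kloopmut; open, wt; 2 libraries each). SPBP19A11.02c, knh2 and pma2 stand at 3236 RPKM or more in both wt libraries and at 295 RPKM or less in both kloopmut libraries, whereas among the rises spo13, pfd4 and tht2 alone reach 116 RPKM in both kloopmut libraries.

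The mutated locus itself was lower at this hour. The lncRNA mamRNA (II:1307681-1308804, 9.96% on another feature) had 55.6 RPKM in each kloopmut library, against 179 and 195 RPKM in the wt libraries (-1.75 ± 0.17, adjusted p = 5.85e-10). Both kloopmut libraries lay below both wt libraries, at an hour at which 65.1% of all features were called. The actin gene act1, often used to normalise such data, was lower too, with 1008 and 999 RPKM in kloopmut, against 1896 and 2002 RPKM in wt (-0.96 ± 0.12, adjusted p = 1.16e-07).

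The regulators of meiotic entry were split. The gene mei2 (I:4510983-4515025), which encodes the switch itself, had 211 and 188 RPKM in kloopmut, against 80.7 and 89.2 RPKM in wt (1.23 ± 0.19, adjusted p = 1.49e-06). Its partner sme2, the non-coding RNA of the Mei2 dot (II:338363-339421), had 26.6 and 28.0 RPKM in kloopmut, against 7.76 and 8.82 RPKM in wt (1.72 ± 0.24, adjusted p = 3.24e-07). The gene mmi1 was lower, with 10.2 and 9.30 RPKM in kloopmut, against 16.3 and 18.2 RPKM in wt (-0.82 ± 0.16, adjusted p = 7.49e-05). Levels of pat1 overlapped between the strains, at 7.70 and 6.95 RPKM in kloopmut and 6.93 and 9.04 RPKM in wt (adjusted p = 0.671). Among the factors that work with Mmi1, erh1, whose product forms a complex with Mmi1, had 55.5 and 56.0 RPKM in kloopmut, against 14.9 and 14.2 RPKM in wt (1.94 ± 0.15), and rrp6, the nuclear exosome nuclease, was higher by 2.03 ± 0.27. The genes red1 and mtl1, which encode the core of the MTREC elimination complex, were higher by 1.34 and 1.44, while the nuclear poly(A)-binding protein gene pab2 fell by 0.74. Of the 14 members of this list 7 were higher, 4 lower and 3 not called. Over all features tested 34.4% were higher and 30.7% lower, and over coding genes 39.7% and 36.4%. The list's median was 0.82 (1.25 with total-count scaling) against 0.05 over all features tested. Only 1 of the 14, the gene pla1 (0.41, not called), has under 10% of its length on another feature. Of the 8 Ccr4-Not deadenylase genes 3 were higher, mot2 (1.94) and the deadenylase gene caf1 (0.77) among them, and 4 were not called (median 0.22), where 39.7% of all coding genes were higher. With total-count scaling 7 were higher and 0 lower (median 0.65). The remaining member, ccr4, was lower (-0.30, adjusted p = 0.0429), a call that was lost without kloopmut replicate 1 (-0.28), kloopmut replicate 2 (-0.33) or wt replicate 2 (-0.22), and its sign turned with total-count scaling (0.12).

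Targets of Mmi1 were mostly higher in kloopmut. Of 20 listed symbols 19 were found and tested, of which 16 were higher and 2 lower (median 1.65, against 0.05 over all features, of which 34.4% were higher). The 4 targets with under 10% overlap were all higher, with a median of 2.95. The gene spo5 (II:2536150-2538254), which encodes an RNA-binding protein needed in the divisions and in forespore membrane formation, had 473 and 487 RPKM in kloopmut, against 50.5 and 40.99 RPKM in wt (3.39 ± 0.21, adjusted p = 5.23e-14). The gene meu1 (I:3802551-3804954, no overlap) had 194 and 203 RPKM in kloopmut, against 26.7 and 27.6 RPKM in wt (2.87 ± 0.10, adjusted p = 6.62e-19). The meiotic cohesin gene rec8 had 3.26 and 4.07 RPKM in kloopmut, against 0.336 and 0.466 RPKM in wt (3.20 ± 0.45, adjusted p = 5.46e-07), so it remained weakly expressed in both strains. In all 3 genes both kloopmut libraries lay above both wt libraries. Below them, mug45 was higher by 3.03 and mcp7, which acts in recombination, by 2.46. The gene mei4, whose factor drives the middle wave, had 131 and 152 RPKM in kloopmut, against 54.9 and 60.7 RPKM in wt (1.29 ± 0.15, adjusted p = 1.83e-08), with 81.7% of its length on another feature. The targets that were lower were the dynein anchor gene num1 (mcp5) at -0.52 and ssm4, which encodes a dynactin subunit of the horsetail movement, at -0.68 (adjusted p = 0.0312). With total-count scaling neither was called (-0.10, adjusted p = 0.652 for num1 and -0.26, adjusted p = 0.456 for ssm4). The call of ssm4 was also lost with limma-voom (adjusted p = 0.118), in the 7 h libraries alone with a replicate block (adjusted p = 0.073), and without kloopmut replicate 1 (-0.61), kloopmut replicate 2 (-0.75) or wt replicate 1 (-0.41).

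The motif TNAAAC, the DNA form of the Mmi1 site, was counted on the sense strand of each gene. Its median density was 6.09 per kb over the targets and 1.65 per kb over all 5070 coding genes with a sequence. The list was made of known Mmi1 targets, so a dense motif in it is not a separate result. Over the targets that were higher the median was 5.87 per kb. The lower targets ssm4 and num1 had 6.30 and 5.74 per kb, and rec27, which was not called, had 13.98 per kb. Coding genes that were higher had a median of 1.78 per kb, and those that were lower 1.57 per kb. The densest stretch of 30 bases in 4 of the targets that were higher is printed to show what these sites look like, with each TNAAAC in capitals, read on the sense strand (spo5, II:2538101-2538130; rec25, I:1753571-1753600; rec8, II:2570134-2570163; mei4, II:1473915-1473944; ASM294v3).
spo5: acTCAAACTTAAACcaacaTAAAACctgtt
rec25: caTAAAACaTGAAACTGAAACaattgcctt
rec8: ttTAAAACcatggattgaaaagcTCAAACc
mei4: gtTTAAACtcaaatattgTTAAACcccctc
The gene rec25, which encodes a component of the linear elements, had 12.2 and 12.5 RPKM in kloopmut, against 4.71 and 5.78 RPKM in wt. A match describes the letters and says nothing of binding.

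Genes of recombination and the linear elements, the axis-like structures of fission yeast prophase, were also mostly higher. Among them rec8, rec10, rec25, rec27, meu13 and mcp7 are listed as Mmi1 targets too, so these lists are not separate observations. Of the list's 25 genes 20 were higher and 2 lower (median 1.37), where 39.7% of all coding genes were higher and 36.4% lower. The kinase gene mek1 had 4.95 and 4.25 RPKM in kloopmut, against 1.02 and 0.224 RPKM in wt (2.83 ± 0.42, adjusted p = 1.11e-06, and 4.34 without wt replicate 1), and the linear element gene rec10 was higher by 2.53 ± 0.31. The gene rec12, which encodes the nuclease that makes meiotic DNA breaks, had 3.65 and 3.04 RPKM in kloopmut, against 1.19 and 0.999 RPKM in wt. The genes mek1 and rec12 were low in both strains at this hour, below 6 RPKM in each library. The translocase gene rdh54 was higher expressed, with 99.3 and 139 RPKM in kloopmut, against 24.9 and 21.5 RPKM in wt (2.36 ± 0.17), but 69.5% of it lies on other features, such as atf31 at I:705042-707473. The gene rec7, which acts in DNA break formation, fell by 1.41, and the meiotic recombinase gene dmc1 was not called (0.32 ± 0.20, adjusted p = 0.164), although it passed with total-count scaling (0.75, adjusted p = 0.00361). The motif ACGCGT, the core of the site bound by the MBF factor of premeiotic replication, on either strand between 250 bases before and 50 bases after the gene start, was present in 52.0% of this list and in 3.27% of all coding genes.

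Of the 15 genes of the telomere bouquet and the horsetail movement, by which telomeres gather at the spindle pole and the nucleus sweeps through the cell, 9 were higher, 2 lower and 4 not called (median 0.63). Over all coding genes 39.7% were higher and 36.4% lower. The 2 lower members, ssm4 and num1, are also the lower Mmi1 targets. The list's median was 0.39 without kloopmut replicate 1 and 0.37 without wt replicate 1, and total-count scaling gave 12 higher and 0 lower (median 1.05). The bouquet gene bqt1 had 14.5 and 15.9 RPKM in kloopmut, against 4.10 and 2.69 RPKM in wt (2.15 ± 0.27). The telomere protein gene taz1 was higher by 2.08 ± 0.17, and mcp6, which organises the microtubules of the horsetail movement, by 2.06 ± 0.26.

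Genes of the meiotic divisions stood higher for the most part. Of 24 genes 16 were higher and 4 lower (median 0.96), where 39.7% of all coding genes were higher and 36.4% lower. The gene spo4 (II:3827178-3828960) encodes the meiotic counterpart of the Cdc7-type kinase and had 255 and 367 RPKM in kloopmut, against 38.7 and 28.0 RPKM in wt (3.22 ± 0.21, adjusted p = 1.5e-13). Its partner spo6 had 529 and 830 RPKM in kloopmut, against 193 and 160 RPKM in wt (1.94 ± 0.19). Both lie wholly on other features. The gene mes1 (I:1498898-1500084), whose product restrains the anaphase-promoting complex so that cells go on into meiosis II, had 1590 and 1544 RPKM in kloopmut, against 740 and 719 RPKM in wt (1.10 ± 0.11, adjusted p = 8.01e-10). The activators of that complex behaved unequally. The meiotic activator gene mfr1 had 157 and 253 RPKM in kloopmut, against 95.1 and 75.1 RPKM in wt (1.26 ± 0.21), and slp1, the general activator, had 361 and 372 RPKM in kloopmut, against 323 and 335 RPKM in wt (0.15 ± 0.13, adjusted p = 0.315). The spindle checkpoint gene mad2 and the shugoshin gene sgo1, which protects centromeric cohesin, were higher by 2.49 and 2.10, and the mitotic inducer gene cdc25 by 0.57. The Cdc2 inhibitor gene wee1 (III:721804-725835, no overlap) was lower, with 9.86 and 9.04 RPKM in kloopmut, against 23.7 and 24.2 RPKM in wt (-1.34 ± 0.16). The B-type cyclin gene cdc13 had 547 and 524 RPKM in kloopmut, against 667 and 679 RPKM in wt (-0.33 ± 0.13, adjusted p = 0.0226). Its call was lost when any of the 4 libraries was left out (adjusted p = 0.105 without kloopmut replicate 2, -0.30; 0.052, -0.36 without kloopmut replicate 1; 0.0586, -0.35 without wt replicate 1; 0.0826, -0.32 without wt replicate 2), and its sign turned with total-count scaling (0.09).

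Forespore membrane genes, which act as membrane grows from the spindle poles to enclose each nucleus, followed the same pattern. Of 20 genes 14 were higher and 4 lower (median 1.11), where 39.7% of all coding genes were higher and 36.4% lower. The spindle pole gene spo2 (II:4322024-4322622, no overlap) had 328 and 300 RPKM in kloopmut, against 31.6 and 45.2 RPKM in wt (3.04 ± 0.24, adjusted p = 1.18e-11). The gene meu14, whose product sits at the leading edge of the membrane, had 710 and 974 RPKM in kloopmut, against 119 and 110 RPKM in wt (2.88 ± 0.15, adjusted p = 1.73e-15). The meiotic septin genes spn5, spn6 and spn7 were higher by 2.04, 2.24 and 2.18, and spn5 (I:3074267-3075988) overlaps no other feature. In contrast, the syntaxin gene psy1 had 240 and 288 RPKM in kloopmut and 263 and 240 RPKM in wt, and the membrane gene spo3 had 304 and 340 RPKM in kloopmut and 290 and 321 RPKM in wt, with differences of 0.07 ± 0.12 and 0.08 ± 0.12 that were not called. Both passed with total-count scaling (0.49 and 0.50). The 4 lower members were mso1 (-2.04), mug27 (-0.97), spo14 (-0.82) and spo20 (-0.28).

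The FLEX element bound by Mei4 has the core GTAAACA or GTAAATA, searched on either strand between 250 bases before and 50 bases after the gene start. It was present in 62.5% of the division genes (15 of 24), in 50.0% of the forespore membrane genes (10 of 20), in 53.3% of the spore wall genes (8 of 15) and in 29.5% of all coding genes (1497 of 5070). Among coding genes that were higher in kloopmut 32.8% held it, and among those that were lower 26.6%. Of the division genes, 10 of the 16 that were higher had a match. The stretches below are printed as examples from the division and forespore membrane lists, with the core in capitals, read on the gene's strand (spo4, II:3827072-3827094; spo6, II:3103033-3103055; meu14, II:4066273-4066295; mes1, I:1498914-1498936; cdc13, II:420053-420075, matched on the opposite strand; ASM294v3). The centres of these cores lie at -95, -53, -10, 27 and -47 bases from the annotated gene start.
spo4: ttggcgaaGTAAACAaacaaaca
spo6: atatttgaGTAAACAaacaaaat
meu14: tctgaaacGTAAACAatcaacat
mes1: ccactactGTAAACAaacgcctc
cdc13: ccccatagTGTTTACgccctcta
The differences of these 5 genes lay between -0.33 (cdc13) and 3.22 (spo4). Named genes with a core also included knh2 (-4.07), knh1 (-3.56) and fib1 (-2.33) among those that were lower, and hst2 (3.60) among those that were higher.

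Spore wall and coat genes were divided, with 4 of 15 higher, 7 lower and 4 not called (median -0.28, or 0.14 with total-count scaling). Coding genes as a whole were divided too, with 39.7% higher and 36.4% lower. Without kloopmut replicate 2 the median was -0.55, and without kloopmut replicate 1 it was -0.22. Of the 15 spore wall genes 0 had under 10% of their length on another feature. The list could therefore not be read on genes that lie apart, and this limit holds for each member named below. The glucan synthase gene mok12 had 5.36 and 5.19 RPKM in kloopmut, against 59.1 and 54.9 RPKM in wt (-3.43 ± 0.15, adjusted p = 1.18e-16), the largest difference in the list. Its relative mok14 (III:839962-844165) had 1442 and 1764 RPKM in kloopmut, against 6782 and 6089 RPKM in wt (-2.01 ± 0.17). The endoglucanase genes eng2 and agn2 fell by 1.97 and 1.21, and mde10, which encodes an ADAM-family protein of spore wall assembly, by 1.59. The glucanosyltransferase gene gas4 (II:4206247-4207715) went the other way, with 6086 and 7993 RPKM in kloopmut, against 2615 and 2523 RPKM in wt (1.45 ± 0.16, adjusted p = 7.8e-09). The spore coat gene isp3 was the most abundant feature in all 4 libraries, with 79636 and 84876 RPKM in kloopmut, against 117160 and 115628 RPKM in wt (-0.50 ± 0.37, adjusted p = 0.233). Both wt libraries lay above both kloopmut libraries. A fit of the 7 h libraries alone called isp3 (-0.52, adjusted p = 2.52e-05), and also meu10, a gene of spore wall organisation (0.34, adjusted p = 0.00133, against 0.36 and adjusted p = 0.0964 in the fit of all libraries).

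Among 14 transcription factors of the meiotic cascade 5 were higher, 5 lower and 4 not called (median -0.15, or 0.28 with total-count scaling), where 39.7% of all coding genes were higher and 36.4% lower. The median lay between -0.21 and -0.03 when 1 library was left out (-0.03 without wt replicate 2 and -0.08 without kloopmut replicate 2). The gene cuf2, whose product works with Mei4 on the middle wave, had 602 and 688 RPKM in kloopmut, against 83.0 and 90.8 RPKM in wt (2.89 ± 0.20, adjusted p = 4.7e-13), but lies wholly on another feature. The forkhead gene fkh2 was higher by 1.80 ± 0.19, and atf31, a bZIP gene of the late wave, by 2.21 ± 0.22. The zinc-finger genes rsv2, which acts in spore formation, and rsv1 were lower, with rsv2 at 85.6 and 94.0 RPKM in kloopmut, against 264 and 284 RPKM in wt (-1.61 ± 0.20). The gene ste11, the factor that starts sexual development, was not called (-0.11 ± 0.22, adjusted p = 0.687).

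**Figure D2:**
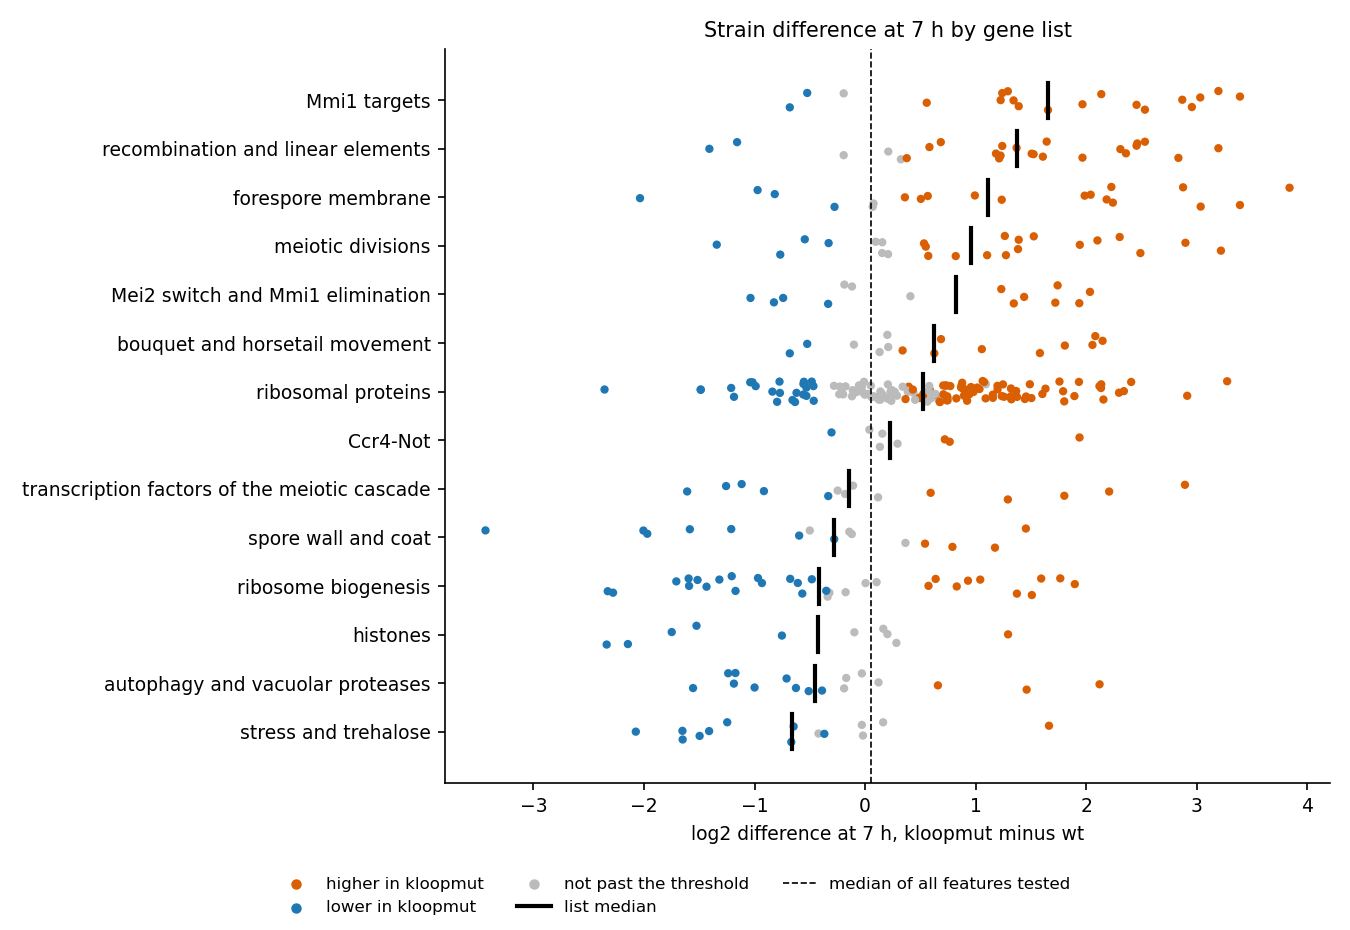
Log2 difference kloopmut minus wt at 7 h of each member of 14 gene lists, with 1 point per gene (orange, higher in kloopmut; blue, lower; grey, not past the threshold), a bar at each list's median and a dashed line at the median of all features tested (0.05). Medians run from 1.65 for Mmi1 targets to -0.66 for stress and trehalose genes, and each list has members on both sides of 0.

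Genes outside the meiotic program were tested as well, and their counts stand beside 39.7% of all coding genes higher and 36.4% lower. Of 32 ribosome biogenesis genes 10 were higher and 17 lower, with a median of -0.42 that total-count scaling moved to 0.0065. The 10 of them with under 10% overlap were split evenly, with 4 higher and 4 lower (median -0.09). The fibrillarin gene fib1 (II:2982404-2983710), which encodes the methyltransferase of box C/D snoRNPs, had 28.6 and 31.4 RPKM in kloopmut, against 143 and 159 RPKM in wt (-2.33 ± 0.14, adjusted p = 6.09e-14). The other core proteins of these particles were lower in part, with nop58 at -1.43 ± 0.18 and nop56 at -0.97 ± 0.22. Unlike them, snu13 had 186 and 164 RPKM in kloopmut and 167 and 183 RPKM in wt (0.00 ± 0.21, adjusted p = 0.991). The ribosome assembly GTPase gene nog1 fell by 2.28 and the RNA polymerase I factor gene rrn3 by 1.71, and the nucleolar gene ebp2 was higher by 1.90. Of the 141 ribosomal protein symbols, taken by the pattern of their names and including rpp1, rpp21 and rpp40, which may be RNase P genes, 70 were higher, 24 lower and 47 not called (median 0.53). With total-count scaling 106 were higher and 12 lower (median 0.95). Of the 46 with under 10% overlap, 19 were higher and 8 lower (median 0.25). Members that were higher had a median length of 605.5 bases, against 894.5 bases in those that were lower, and over all coding genes the medians were 1506 bases in those that were higher and 2040 bases in those that were lower. The part of length in these differences was not tested. The gene rpl39, among the shortest, had 458 and 302 RPKM in kloopmut, against 33.1 and 68.5 RPKM in wt (2.91 ± 0.65), and rps2 had 429 and 397 RPKM in kloopmut, against 915 and 999 RPKM in wt (-1.21 ± 0.15).

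Of 10 histone genes 1 was higher, 5 lower and 4 not called, with a median of -0.43 that total-count scaling moved to 0.00. The 3 of them with under 10% overlap had 1 higher and 1 lower (median -0.10). The shares over all coding genes were 39.7% higher and 36.4% lower. The H2A gene hta1 had 51.4 and 46.5 RPKM in kloopmut, against 252 and 243 RPKM in wt (-2.34 ± 0.22, adjusted p = 2.94e-10), on a feature wholly covered by others. The H2A.Z gene pht1 fell by 2.15, and the H3 gene hht3 (II:3528800-3529565, 6.01% overlap) had 416 and 370 RPKM in kloopmut, against 1132 and 1129 RPKM in wt (-1.53 ± 0.16). The H4 gene hhf1 was higher by 1.29 ± 0.18, and the most abundant of the H3 genes named here, hht2, was not called, at 2216 and 1802 RPKM in kloopmut and 2085 and 2214 RPKM in wt. Histone genes are close copies of each other, so their counts are uncertain.

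Stress and trehalose genes had 9 of 14 members lower and 1 higher (median -0.66), and with total-count scaling 6 lower and 3 higher (median -0.23). For this list and the next, the shares over all coding genes were 36.4% lower and 39.7% higher. The stress factor gene atf1 had 45.3 and 45.6 RPKM in kloopmut, against 184 and 199 RPKM in wt (-2.07 ± 0.12, adjusted p = 3.24e-14), and the glycerol gene gpd1 and the catalase gene ctt1 fell by 1.65 and 1.25. The exception was the metallothionein gene zym1 (I:2381666-2382200, no overlap), with 20085 and 18989 RPKM in kloopmut, against 5723 and 6615 RPKM in wt (1.66 ± 0.23, adjusted p = 3.35e-07). Among autophagy and vacuolar protease genes 9 of 16 were lower and 3 higher (median -0.45), while total-count scaling gave 5 lower and 4 higher (median -0.026). The carboxypeptidase Y gene cpy1 had 482 and 480 RPKM in kloopmut, against 1387 and 1442 RPKM in wt (-1.56 ± 0.11), and the protease gene psp3 fell by 1.24. The ubiquitin-like conjugation gene atg12 was higher by 2.12 ± 0.23.

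Markers of mating type were read to check the label of h- cells, which are of the M type. Of 7 M-cell markers 1 was higher, 2 lower and 4 not called, and of the 2 P-cell markers found 1 was higher and 1 lower. Over all coding genes 39.7% were higher and 36.4% lower. The lower M-cell markers were mam1 (-0.97) and mam2 (-0.96), while mam3 (-0.39) and mfm3 (0.56) were among those not called. The M-factor pheromone genes mfm1 and mfm2 were expressed in both strains, with mfm1 at 178 and 133 RPKM in kloopmut and 113 and 134 RPKM in wt, and mfm2 at 385 and 282 RPKM in kloopmut, against 87.4 and 92.6 RPKM in wt (1.89 ± 0.39). The P-factor gene map2 stayed low, at 0.303 and 0.702 RPKM in kloopmut and 2.37 and 2.26 RPKM in wt. The other marker of P cells, the pheromone receptor gene map3, had 29.4 and 28.2 RPKM in kloopmut, against 6.40 and 8.85 RPKM in wt, with 99.8% of its length on another feature. The call of map2 (-2.21, adjusted p = 0.0203) was lost without kloopmut replicate 1 (-1.71) or wt replicate 1 (-2.18). The switch gene mat1-Mc had 1.30 and 0 RPKM in kloopmut and 0 RPKM in both wt libraries, and shares its sequence with silent cassettes.

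Whether the strain difference at 7 h differed from that of the neighbouring hours was tested for each feature. The test treated libraries of different hours as independent, although they may come from the same cultures. At 6 h 8235 features differed between the strains (68.5%), with 36.7% higher in kloopmut and 31.8% lower, and at 8 h 6401 (53.3%), with 26.1% higher and 27.2% lower. The difference at 7 h departed from the 6 h difference for 6063 features (50.4%), of which 3149 had a more positive difference at 7 h (26.2% of those tested) and 2914 a more negative one (24.2%). With total-count scaling 32.1% of those calls were more positive, against 51.9%. It departed from the 8 h difference for 4386 features (36.5%), with 2289 more positive at 7 h (19%) and 2097 more negative (17.4%). The more positive ones were 52.2% of the calls with TMM and 80.4% with total-count scaling. Among coding genes 1455 were higher in kloopmut at both 6 and 7 h and 1067 lower at both, while 242 were higher at 7 h and lower at 6 h and 348 the reverse. Against 8 h, 1223 coding genes were higher at both hours, 1256 lower at both, 140 higher at 7 h and lower at 8 h, and 63 the reverse.

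Genes of the divisions and of the forespore membrane mostly had a more positive difference at 7 h than at 6 h. Of the 24 division genes 14 had a more positive difference at 7 h than at 6 h and 2 a more negative one, and the list's median was -0.17 at 6 h, 0.96 at 7 h and 0.59 at 8 h. Of the 20 forespore membrane genes the numbers were 15 and 2, with medians of 0.24, 1.11 and 1.37 at 6, 7 and 8 h. Over all 5075 coding genes tested 1501 had a more positive difference at 7 h than at 6 h and 1571 a more negative one. The gene mes1 averaged 1062 ± 27.1 RPKM in kloopmut and 2019 ± 12.9 RPKM in wt at 6 h (SD, n = 2 each), so that its strain difference went up by 2.03 on the log2 scale by 7 h. The cyclin gene cdc13 averaged 194 ± 6.57 RPKM in kloopmut and 1116 ± 60.2 RPKM in wt at 6 h (a change of 2.19 by 7 h), and at 8 h 471 ± 34.1 RPKM in kloopmut and 302 ± 28.8 RPKM in wt. The activator gene slp1 averaged 192 ± 34.0 RPKM in kloopmut and 854 ± 30.1 RPKM in wt at 6 h (a change of 2.31). The differences of spo6, mfr1, spo3 and spo13 moved by 3.26, 2.84, 2.34 and 2.47 in the same direction. The differences of cdc13, slp1 and spo3 were thus -2.52, -2.15 and -2.27 at 6 h, -0.33, 0.15 and 0.08 at 7 h, and 0.64, 0.47 and 1.03 at 8 h.

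Spore wall genes were lower at 6 h, with a median of -1.58, 11 of 15 lower and 0 higher. Of all 5075 coding genes tested 1739 were lower and 2220 higher at that hour. By 7 h the difference of 9 spore wall genes had become more positive and that of 2 more negative. Over all coding genes 1501 had become more positive and 1571 more negative. At 8 h the median of the spore wall genes was 0.15. The gene gas4 averaged 1177 ± 282 RPKM in kloopmut and 3528 ± 215 RPKM in wt at 6 h, and its difference was 3.04 more positive at 7 h. The transcription factor gene cuf2 averaged 209 ± 18.1 RPKM in kloopmut and 194 ± 27.8 RPKM in wt at 6 h, and its difference was 2.79 more positive at 7 h. The differences of mei4 and mei2 were more positive at 7 h than at 6 h by 1.45 and 0.93.

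Genes of recombination and Mmi1 targets, lists that share members, were already higher at 6 h (medians 1.89 and 2.26), with medians of 0.04 and 0.17 at 8 h. At that hour 10 of 25 recombination genes were higher in kloopmut and 7 lower, and 9 of 19 Mmi1 targets were higher and 2 lower, against 26.1% of all features higher and 27.2% lower. Between 7 and 8 h, 14 of 25 recombination genes and 13 of 19 Mmi1 targets had a difference that was more positive at 7 h, and 0 of either list one that was more negative. Over all 5075 coding genes tested 1253 were more positive at 7 h than at 8 h and 1150 more negative. The gene rec8 averaged 1.37 ± 0.141 RPKM in kloopmut and 1.48 ± 0.870 RPKM in wt at 8 h, and its difference at 7 h exceeded that at 8 h by 3.28. The differences of mek1, rec10 and rrp6 at 7 h exceeded those at 8 h by 3.82, 2.92 and 2.49.

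**Figure D3:**
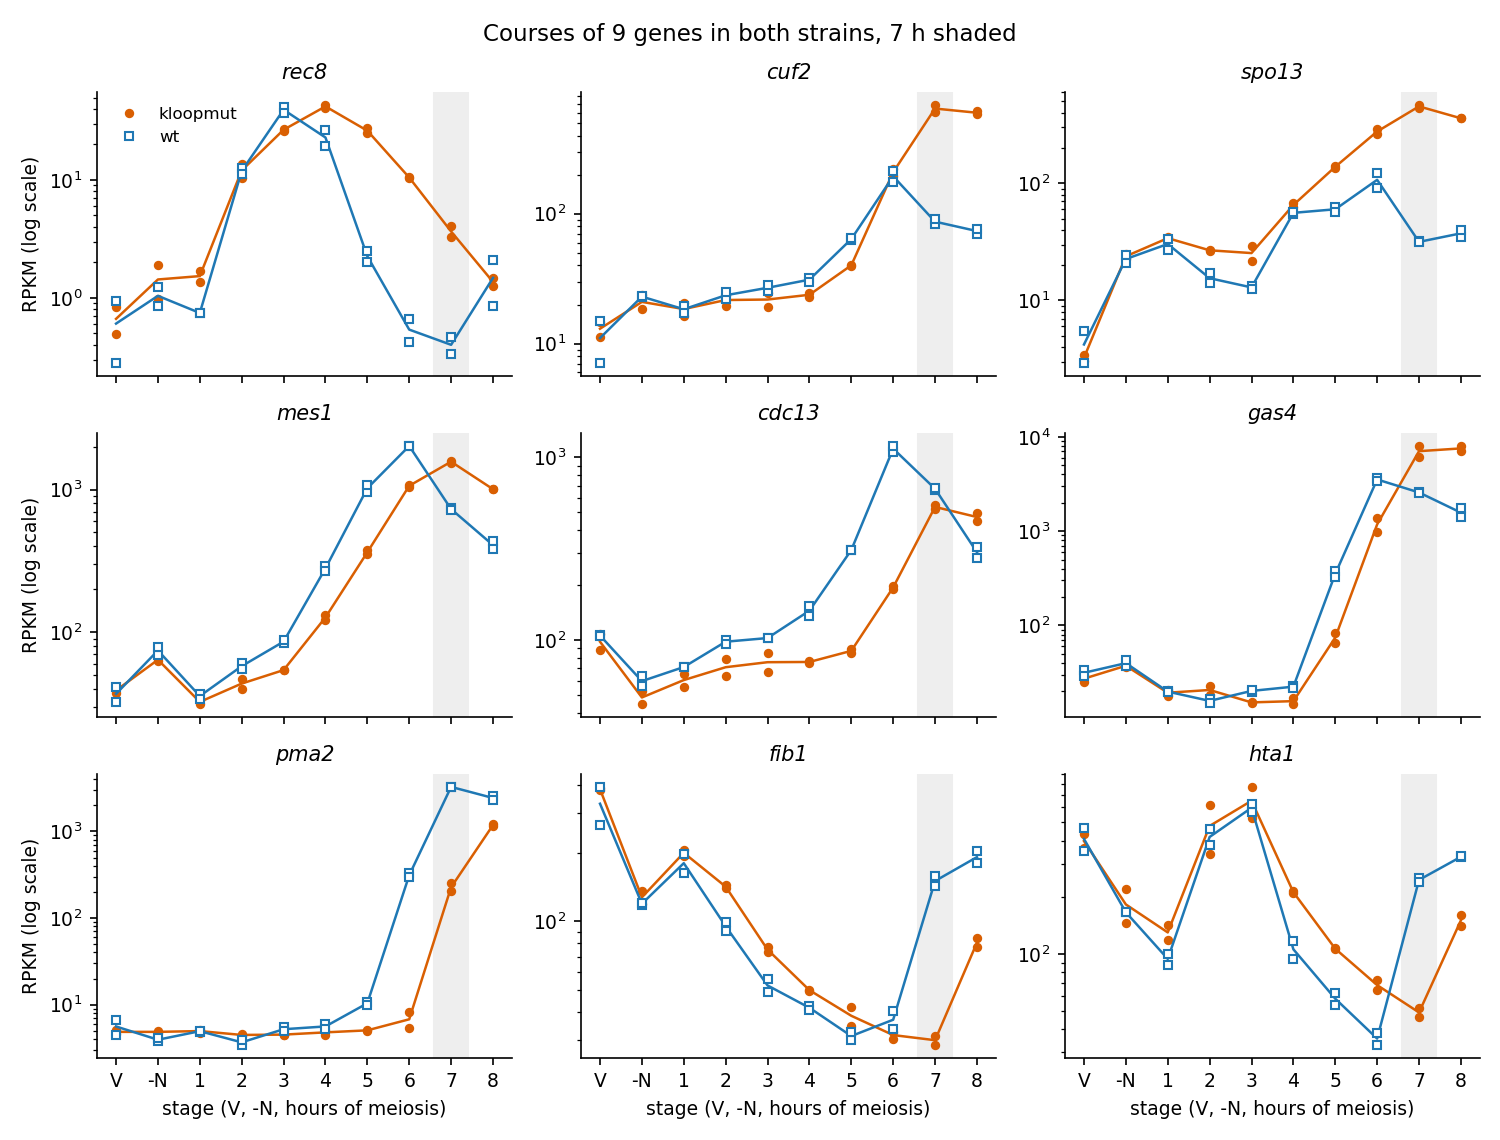
RPKM on a log axis of 9 genes in kloopmut (filled) and wt (open) cells from vegetative growth to 8 h, with 1 point per library, lines through the means of 2 libraries and 7 h shaded. In wt, cdc13 and mes1 stand higher at 6 h than at 7 h, whereas in kloopmut they stand higher at 7 h than at 6 h (cdc13 194 RPKM on average at 6 h, 547 and 524 RPKM at 7 h).

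In other lists the median difference moved down between 6 and 7 h. The median of ribosome biogenesis genes was 0.40 at 6 h and -0.42 at 7 h, with 17 of 32 more negative at 7 h and 3 more positive. That of histone genes was 0.88 at 6 h and -0.43 at 7 h, with 5 of 10 more negative and 1 more positive. Over all 5075 coding genes tested 1571 were more negative at 7 h than at 6 h and 1501 more positive. The differences of hta1, pht1 and hht3 moved by -3.28, -3.42 and -2.86. At 6 h hht3 averaged 611 ± 7.24 RPKM in kloopmut and 241 ± 19.2 RPKM in wt, and at 8 h 832 ± 70.7 RPKM in kloopmut and 2157 ± 94.3 RPKM in wt. The gene fib1 averaged 31.6 ± 1.62 RPKM in kloopmut and 36.9 ± 4.75 RPKM in wt at 6 h (a change of -2.10 by 7 h), and pab2 moved by -2.17. The difference of mamRNA at 7 h minus that at 6 h was -1.09 on the log2 scale. At 6 h mamRNA averaged 65.0 RPKM in kloopmut and 102 RPKM in wt.

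**Figure D4:**
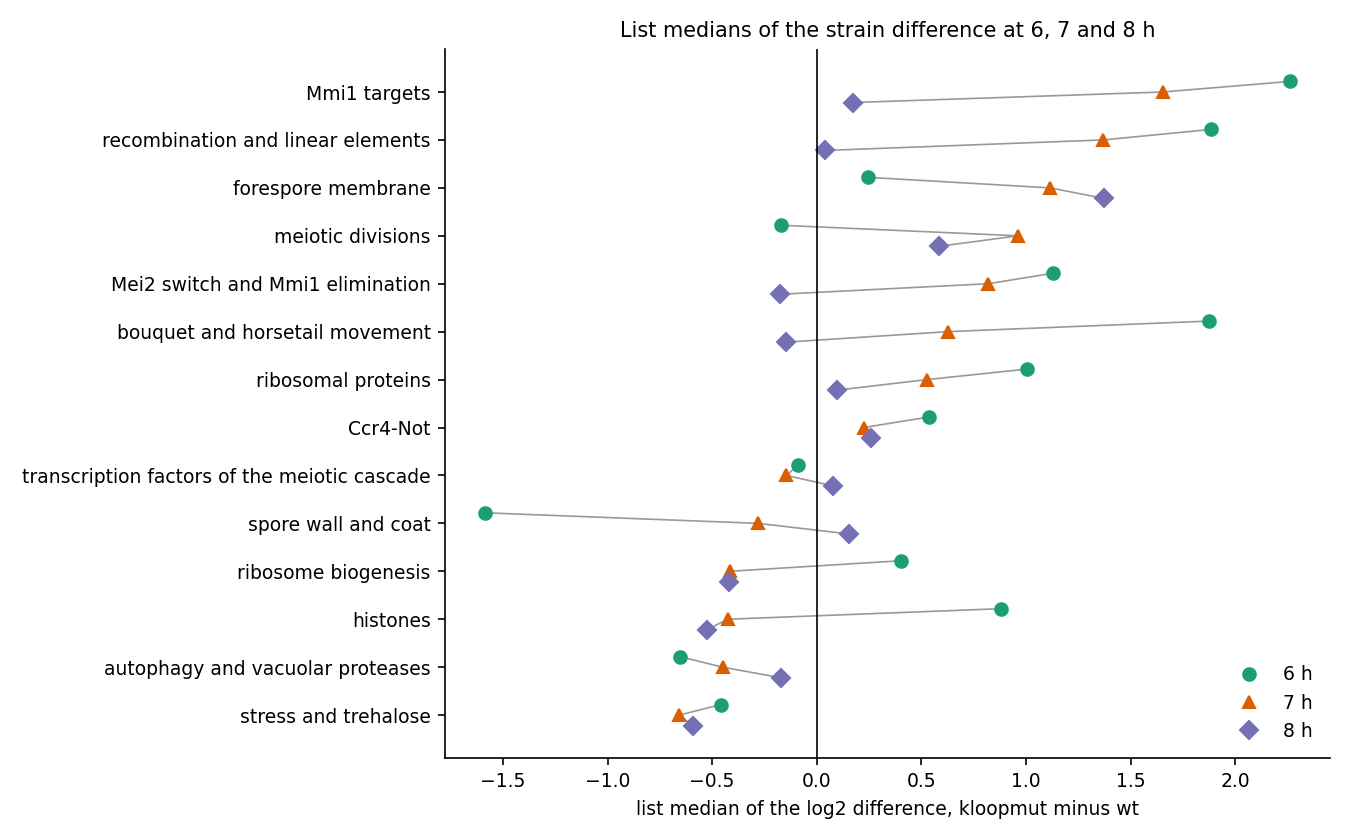
Median log2 difference kloopmut minus wt of each gene list at 6, 7 and 8 h. The medians of recombination genes and Mmi1 targets are highest at 6 h (1.89 and 2.26) and near 0 at 8 h (0.04 and 0.17), and that of spore wall genes runs from -1.58 at 6 h to 0.15 at 8 h.

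Of single genes, mug24 had the most positive change of the strain difference by the naming rule. It (III:1919282-1922733) had 488 and 571 RPKM in kloopmut, against 2783 and 2590 RPKM in wt at 7 h (-2.34 ± 0.16), and averaged 7.91 ± 1.25 RPKM in kloopmut and 909 ± 20.4 RPKM in wt at 6 h, a change of 4.50. The genes meu27 and chk1 (3.97 and 3.91) overlap each other on chromosome III, so they are not 2 independent observations. On the other side stood mso1, which encodes an exocytosis factor in budding yeast (-4.44), the gene of the mitochondrial inner membrane organiser mic26 (-4.22) and SPAPB1A11.06 (-4.20). For mic26 the levels were 18.9 and 13.5 RPKM in kloopmut, against 53.4 and 56.5 RPKM in wt at 7 h, and 22.5 ± 0.494 RPKM in kloopmut and 4.09 ± 0.0234 RPKM in wt at 6 h. Against 8 h, the most negative differences were those of knh2 (-3.10), SPCC594.04c (-2.84) and knh1 (-2.84). Those of pma2 and mok14 were -2.81 and -1.61. At 8 h knh2 averaged 2184 ± 225 RPKM in kloopmut and 4283 ± 173 RPKM in wt, and pma2 1184 ± 34.3 RPKM in kloopmut and 2436 ± 223 RPKM in wt. The most positive against 8 h were SPAC8E11.06 (4.24), SPCC613.08 (2.84) and SPAC144.01 (2.73). For act1 the difference at 7 h minus that at 8 h was -0.61.

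The kloopmut libraries of 7 h were also set against wt libraries of other hours, which all share the kloopmut libraries. Against wt at 4, 5, 6, 7 and 8 h, the features that differed numbered 7303 (60.8%), 6645 (55.3%), 6683 (55.6%), 7824 (65.1%) and 7916 (65.9%). Of these, 3969 (33%), 2866 (23.8%), 2867 (23.9%), 4710 (39.2%) and 4505 (37.5%) differed by 2-fold or more. The counts against wt cells of 5 and 6 h were thus the lowest of the 5. Against wt at 6 h, the calls of 2-fold or more were 2245 higher in kloopmut at 7 h (18.7%) and 622 lower (5.18%). The share of higher calls against wt at 4, 5, 6 and 8 h was 51.3%, 54.3%, 54.2% and 50.2% with TMM, and 18.3%, 34.6%, 75.9% and 60.02% with total-count scaling.

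To see what the called genes shared, coding genes were grouped by the wt stage of their highest level, with the 7 h libraries left out. Of the 190 genes that peaked at 4 h in wt, 152 (80%) were higher in kloopmut at 7 h and 18 (9.47%) lower (median 1.30), against 39.7% and 36.4% of all coding genes. Of the 499 that peaked at 3 h, 69.9% were higher and 11.2% lower (median 1.00). At the other end, of the 672 that peaked at 8 h in wt 3.13% were higher and 82.4% lower (median -1.34), and of the 557 that peaked in vegetative cells 13.1% were higher and 61.2% lower (median -0.67). The 990 genes that peaked at 6 h were split, with 34.1% higher and 36.7% lower. These shares are a description, since the wt libraries of neighbouring hours resemble each other.

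**Figure D5:**
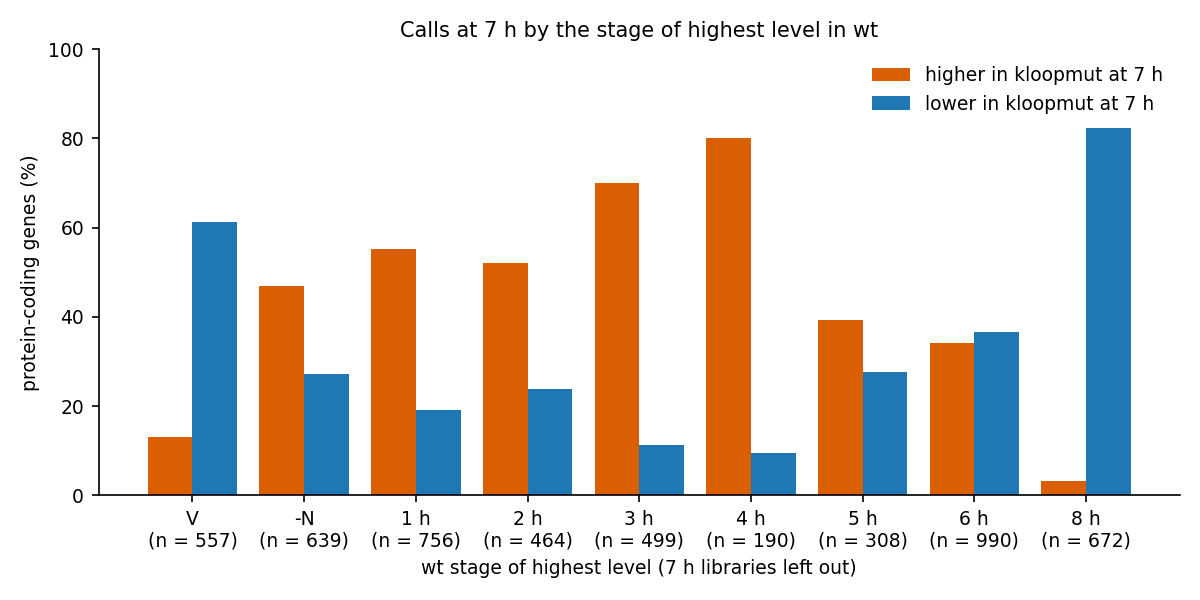
Share of protein-coding genes that were higher (orange) or lower (blue) in kloopmut at 7 h, by the stage at which wt cells had their highest level, the 7 h libraries left out (V, vegetative; -N, nitrogen-starved; n, genes per stage). The share of higher genes is largest for those that peaked at 4 h in wt (80%) and smallest for those that peaked at 8 h (3.13%).

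Non-coding features were read where they lie apart from others. Of 520 with under 10% overlap, 112 were higher (21.5%) and 73 lower (14%), which made 35.6% in all. SPNCRNA.2924 (I:2064635-2064862) had 110 and 129 RPKM in kloopmut, against 875 and 918 RPKM in wt (-2.91 ± 0.16, adjusted p = 5.13e-15). SPNCRNA.7070, SPNCRNA.4334, SPNCRNA.4148 and SPNCRNA.5104 fell by 3.84, 2.62, 2.56 and 2.37, and SPNCRNA.4334 was not past the threshold with limma-voom (adjusted p = 0.103). The largest rises were of SPNCRNA.1107 (III:108832-109337), with 18.4 and 16.4 RPKM in kloopmut, against 1.37 and 1.26 RPKM in wt (3.72 ± 0.55, adjusted p = 9.03e-07), and of SPNCRNA.5178 (3.31), SPRRNA.52 (3.29), SPNCRNA.3087 (3.23) and SPNCRNA.4387 (3.03). Both libraries of each strain lay apart for these 10 features, as the rule that named them required.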

How the data were processed

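Poly(A)+ RNA of 40 libraries (2 strains, 10 stages, 2 libraries each) was sequenced as 150 bp paired-end reads. The authors demultiplexed with bcl2fastq 2.20, trimmed with fastp 0.23.1, aligned with STAR 2.6.1d and deposited raw counts per feature from featureCounts (Subread 2.0.6). Genome and annotation release, strand setting and treatment of reads with several matches are not given in the sources used here. An empty cell displaced the header against the data, which was corrected. Of 12684 features 12602 matched the RefSeq annotation of ASM294v3 by identifier and 2 more by a suffix, 12594 with the same start and end, and symbols and sequences came from there.

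The analysis of the deposited counts used edgeR 4.0.16 (R 4.3.3). The filter filterByExpr kept 12019 features and removed 665. With TMM, factors at 7 h were 0.697 and 0.681 in kloopmut and 0.513 in both wt libraries. A quasi-likelihood fit over all 40 libraries with 1 mean per group left 20 residual degrees of freedom (prior 7.56, common dispersion 0.0197). Tests were two-sided and adjusted by Benjamini-Hochberg over all features tested. RPKM used TMM-scaled library sizes and table lengths. For wt peak stages, log2 (RPKM + 0.5) was used. Alternatives were total-count and RLE scaling, no count filter, DESeq2 1.42.0, limma-voom (limma 3.58.1), the hours compared alone, feature subsets, a 2-fold limit, a replicate block and leaving out each library.

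The comparison, its lists and the genes named were chosen with earlier results of these data known, and no list was tested as a set. Named were mei2, mmi1, sme2, pat1, mei4, act1 and mamRNA. To these were added the 10 largest coding rises and falls at 7 h and the 5 largest low-overlap non-coding ones, past the threshold with all 4 differences between single libraries of 1 sign and 10 RPKM or more in a strain. The 3 largest changes in each direction against 6 h and 8 h, and members of the lists, complete the rule. Of the 14 named lists and 2 marker lists, meu2, krr1 and mat1-Pc were not found. Some genes stand in more than 1 list. The Mmi1 targets share spo5 with the forespore membrane genes and crs1 with the division genes.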

Additional observations from a re-analysis of the deposited data

Results flagged for a closer look

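The strain difference at 7 h differed from that at 6 h for 6063 features and from that at 8 h for 4386 features by edgeR's test of the difference itself. The values below are differences of log2 differences, with 7 h first, and each passed that test.

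Against 6 h, the strain difference at 7 h was more positive for mug24 (4.50), meu27 (3.97), chk1 (3.91), spo6 (3.26), gas4 (3.04), mfr1 (2.84), cuf2 (2.79), spo13 (2.47), spo3 (2.34), slp1 (2.31), cdc13 (2.19), mes1 (2.03), mei4 (1.45) and mei2 (0.93). It was more negative for mso1 (-4.44), mic26 (-4.22), SPAPB1A11.06 (-4.20), pht1 (-3.42), hta1 (-3.28), hht3 (-2.86), pab2 (-2.17), fib1 (-2.10) and mamRNA (-1.09).

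Against 8 h, it was more positive for SPAC8E11.06 (4.24), mek1 (3.82), rec8 (3.28), rec10 (2.92), SPCC613.08 (2.84), SPAC144.01 (2.73) and rrp6 (2.49). It was more negative for knh2 (-3.10), SPCC594.04c (-2.84), knh1 (-2.84), pma2 (-2.81), mok14 (-1.61) and act1 (-0.61). With 2 libraries a group, no library could be tested for standing apart from the others of its group.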

How the results depend on the processing

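The count at 7 h was 7824, and 3919 with a fit of protein-coding features only, 756 among features under 10% overlap and 4710 with a 2-fold limit, each of which tests or admits fewer features. For the change against 6 h (6063) these counts were 3195, 561 and 3976, and against 8 h (4386) 2582, 382 and 2302. Leaving out 1 library gave 6971 to 7065, 5454 to 5627 and 3655 to 3868. At 7 h, replicates of the same number did not deviate together between the strains (r = -0.0645). The study's methods describe aliquots taken every hour. Libraries of 1 strain and replicate number may therefore come from 1 culture sampled repeatedly. That pairing was not tested, and the fit treated all libraries as independent. With a replicate block, shared by both strains, the counts were 7949, 6258 and 4568 (7383 for 7 h libraries alone). Total-count scaling turned the medians of spore wall (0.14), transcription factor (0.28), ribosome biogenesis (0.0065), histone (0.00012) and P-cell (0.28) lists and the differences of cdc13 (0.094), atf21 (0.090), ccr4 (0.12) and tps1 (0.40) positive. It gave 7 Ccr4-Not, 5 M-cell and 1 P-cell calls, DESeq2 5 M-cell calls, and leaving out 1 library 1 to 2 P-cell calls (median -0.48 to 0.087). The M-cell median was -0.052 in the 7 h libraries alone (-0.056 with the replicate block), and the P-cell median was 0.087 without kloopmut replicate 1. Of 121 named genes past the threshold, 110 kept call and direction under every alternative. Some of them were named for large differences with all libraries apart, which favours such stability, so this number does not measure robustness. The cause of these changes was not tested.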
